A study of Mus musculus with 8 samples.

Results

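Aire-high resting medullary thymic epithelial cells were examined in single-cell RNA sequencing libraries of the mouse thymus. The cells were selected on their own counts, and a cell of the adult medullary epithelial (mTEC) libraries was a member when it held at least 5 unique molecular identifiers (UMIs, each standing for a captured RNA molecule) of Aire and fewer than 3 of Top2a and Mki67 together. Excluded were cells in which mitochondrial RNA passed 5% of the UMIs, and cells in which over 5000 genes were found. This rule chose 471 of 1586 adult mTEC in replicate 1 (29.7%, exact binomial 95% interval 27.5 to 32.0) and 1710 of 5615 in replicate 2 (30.5%, 29.3 to 31.7). The 2181 members came from 7201 adult mTEC, and from 25750 cells in the 8 libraries of the series. Intervals cover counting error only.

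Both libraries held thymus cells of wild-type C57 B6 (CD45.2) mice with no treatment, sorted as DAPI- EpCAM+ CD45- Ly51- UEA-1+. UEA-1 is a lectin that binds medullary epithelium, and Ly51 marks the cortical epithelium (cTEC) that was sorted out. Replicate 1 belonged to the first data set of the study and replicate 2 to the later one. The methods of the study give adult mice for sequencing as 4 to 6 weeks old and of either sex unless stated otherwise. The number of mice behind a library is not given in the sources used here, and nothing says that the libraries came from separate animals, so p-values measure only the spread between these samples, which may be technical.

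Medullary thymic epithelium displays proteins of other organs to developing T cells, so that T cells reactive to the body's own proteins are deleted or become regulatory T cells. Aire is a nuclear protein that releases stalled RNA polymerase at many tissue-restricted genes, and Fezf2 is a transcription factor that switches on a further set of them. Signals through the receptor RANK, encoded by Tnfrsf11a, and through CD40 drive the maturation of these cells, which carry abundant MHC class II and the costimulatory ligands CD80 and CD86 and are also called mTEC II. Less mature mTEC I make the chemokine CCL21 and basal keratins, and mTEC III and the tuft-like mTEC IV are regarded as later or divergent forms.

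The markers of the label that the rule did not use were present in most members. Fezf2 had a UMI in 94.3% of members in replicate 1 and 95.9% in replicate 2, against 3.94% and 2.43% of adult cTEC. Cd40 had a UMI in 89.8% and 84.5% of members, against 7.89% and 15.9% of adult cTEC, and Tnfrsf11a in 68.4% and 67.0%, against 4.34% and 2.99%. In Aire-zero mTEC, the class defined below, the shares were 60.3% and 67.1% for Fezf2, 28.8% and 30.6% for Cd40 and 37.0% and 33.7% for Tnfrsf11a, at a lower depth. The members were deeper, with medians of 12807 and 14918 UMIs per cell against 3996 and 7062 in adult cTEC. The rule found 2 of 507 and 1 of 535 adult cTEC and no cell in the 4 libraries of younger ages.

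The members were compared within each library with the other mTEC, which were divided by the same counts. Aire-low resting mTEC had from 1 to 4 Aire UMIs (266 and 2017 cells), Aire-zero resting mTEC had 0 (749 and 1361 cells), and cycling mTEC had at least 3 UMIs of Top2a and Mki67 together, whatever their Aire (100 and 527 cells). Aire-zero is a mixture of several kinds of mTEC, and a cell listed at 0 at its depth need not lack Aire. Depth followed the rule, with a median of 10206 and 10035 UMIs per cell in Aire-low, 7218 and 7041 in Aire-zero and 17987 and 20021 in cycling mTEC. Members had a median of 2.99% and 2.22% mitochondrial UMIs, and Aire-zero cells 3.28% and 2.28%. The libraries shared 20 cell barcodes, none of which belonged to a member. A further 49 and 92 cells met the counts of Aire, Top2a and Mki67 but lay outside the limits on cells, 15 and 66 of them with more than 5000 genes.

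Markers of cells other than epithelium were present in the members, and 5 of 6 lists of them, all but the mesenchymal, summed to higher levels than in Aire-zero mTEC. Levels are UMIs summed over a class per 1000000 UMIs of the genes measured in both data sets (CPM), and each RNA molecule counts once whatever its length. The 10 myeloid and dendritic markers summed to 917 and 853 CPM in members against 59.9 and 369.6 in Aire-zero mTEC, the 6 erythroid markers to 156 and 169 against 4.67 and 47.8, and the 11 thymocyte markers to 140.2 and 105 against 13.501 and 30.2. Single genes held much of the myeloid and thymocyte sums. Lyz2 had 4622 and 16332 UMIs in members, next to 501 and 3013 for Fcer1g. Thy1 had 473 and 1355, next to 98 and 364 for Lck. Cd3e had a UMI in 1.70% of members in each library, and Itgax in 0.42% and 0.70%. The 5 B cell markers summed to 44.4 and 50.3 CPM against 9.35 and 30.3, the 6 endothelial markers to 35 and 22.2 against 18.9 and 13.1, and the 7 mesenchymal markers to 76.7 and 73.3 against 166 and 82.4. Ptprc, the gene of the blood cell antigen CD45 used in the sort, was at 2.24 and 2.27 CPM in members and 1.73 and 1.88 in Aire-zero mTEC and had a UMI in 1.91% and 1.99% of members. At least 3 UMIs over these lists were found in 78.8% and 90.9% of members and in 21.5% and 39.5% of Aire-zero cells. No marker of these 6 lists was at 0 in the members. Calls and directions that changed are given with many of the results under 2 filters. A blood cell filter left out cells that had a UMI of Ptprc, Cd3e or Rag1 or lay in the top 5% of UMIs of their library, and a strict filter left out the same top 5% and every cell with at least 3 UMIs over these lists, which kept 93 and 153 members.

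Promoters of 5 genes that the results turn on are shown from RefSeq (GRCm38.p6), as 250 bases before the gene start and 50 after it, 5′ to 3′ on the strand of the gene, with each CG pair in capitals. Tissue-restricted genes often have promoters with few CG pairs, and the promoters of broadly active genes often have many. Aire (chr10:78043561-78043860, minus strand) is the gene that defines the cells, and Cd80 (chr16:38458683-38458982, plus strand) is a costimulatory ligand of mature mTEC. Csn2 (chr5:87699376-87699675, minus strand) encodes the milk protein beta-casein, and Sprr2i (chr3:92407741-92408040, plus strand) and Gas1 (chr13:60177486-60177785, minus strand) had the largest difference in each direction from Aire-zero mTEC among the genes that the naming rule allows.
Aire: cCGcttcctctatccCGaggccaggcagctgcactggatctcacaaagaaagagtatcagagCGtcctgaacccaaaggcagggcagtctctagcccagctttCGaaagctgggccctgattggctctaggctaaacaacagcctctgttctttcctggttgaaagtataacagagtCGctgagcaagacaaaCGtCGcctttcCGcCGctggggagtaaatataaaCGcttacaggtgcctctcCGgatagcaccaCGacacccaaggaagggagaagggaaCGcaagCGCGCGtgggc
Cd80: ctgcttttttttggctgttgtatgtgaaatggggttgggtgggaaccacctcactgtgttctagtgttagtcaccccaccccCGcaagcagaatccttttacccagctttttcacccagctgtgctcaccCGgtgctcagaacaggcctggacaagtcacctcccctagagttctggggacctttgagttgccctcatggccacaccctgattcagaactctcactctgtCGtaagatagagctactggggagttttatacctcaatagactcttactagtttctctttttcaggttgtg
Csn2: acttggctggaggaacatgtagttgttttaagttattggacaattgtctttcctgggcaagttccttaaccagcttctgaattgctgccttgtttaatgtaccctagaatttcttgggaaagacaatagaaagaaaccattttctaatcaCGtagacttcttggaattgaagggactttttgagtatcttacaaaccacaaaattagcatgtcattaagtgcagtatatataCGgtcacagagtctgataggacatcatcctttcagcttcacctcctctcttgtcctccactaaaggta
Sprr2i: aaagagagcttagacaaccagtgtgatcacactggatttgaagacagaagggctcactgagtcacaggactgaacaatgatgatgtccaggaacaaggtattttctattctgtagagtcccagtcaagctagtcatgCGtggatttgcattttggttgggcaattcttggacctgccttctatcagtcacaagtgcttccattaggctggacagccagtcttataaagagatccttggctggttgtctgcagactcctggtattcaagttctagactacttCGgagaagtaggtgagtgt
Gas1: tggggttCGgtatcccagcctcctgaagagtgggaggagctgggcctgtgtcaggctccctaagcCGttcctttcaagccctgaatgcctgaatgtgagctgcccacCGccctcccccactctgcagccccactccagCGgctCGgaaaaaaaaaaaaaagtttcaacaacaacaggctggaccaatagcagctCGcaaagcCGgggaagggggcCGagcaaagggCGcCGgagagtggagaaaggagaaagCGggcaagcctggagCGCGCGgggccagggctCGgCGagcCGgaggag
The Csn2 and Sprr2i promoters held 2 CG pairs each and that of Cd80 held 3, while those of Aire and Gas1 held 16 and 17. Over the 27025 promoters of the same table, the median was 7 CG pairs, and 38.3% held at most 4. The letters TATAAA, searched on both strands, were in the Aire and Sprr2i promoters on the strand of the gene, starting at base 222 of the run in each, and in the Cd80 promoter on the other strand, and were not in the windows of Csn2 and Gas1. TATAAA was on either strand of 14.2% of all these promoters. The gene start is that of RefSeq and can differ from the bounds given elsewhere in the text, which are those of GENCODE vM21. The Cd80 window lies inside the GENCODE gene (16:38455561-38496335, GRCm38), the Csn2 window lies mostly inside it, and the Gas1 window lies wholly upstream of it.

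Aire itself (10:78030022-78043610, minus strand) was at 974 CPM in the members of replicate 1 and 754 in those of replicate 2. It was at 198 and 182 CPM in Aire-low and 317 and 357 in cycling mTEC, and at 0 in Aire-zero mTEC by definition. These levels describe the rule and were not tested. A member held a median of 11 Aire UMIs in replicate 1 and 10 in replicate 2, and at most 42 and 49. The threshold cut through a continuous range, with 47 and 233 resting cells at 4 Aire UMIs, just outside, and 37 and 202 at 5, just inside. Across this edge Fezf2 went from 662 to 717 CPM in replicate 1 and from 502 to 536 in replicate 2, and Krt5 from 207 to 155 and from 179 to 112. Aire counts followed depth in part, and when each cell was thinned to 5000 UMIs 16.9% and 11.4% of the remaining mTEC still had at least 5 Aire UMIs and met the other limits. A rule on the share of Aire among the UMIs of a cell, set to choose the same number of cells, shared 441 of 471 members in replicate 1 and 1528 of 1710 in replicate 2.

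Members differed from Aire-zero mTEC in 5326 of 16040 genes tested, 2620 higher and 2706 lower (edgeR quasi-likelihood test on UMIs summed per class and library, library as a term, Benjamini-Hochberg adjusted p under 0.05). The share of all tested genes called was 16.3% higher and 16.9% lower, and the median log2 fold change over all genes was 0.00. With relative log expression size factors 3056 were higher and 2365 lower, and with DESeq2 3109 and 2223. The fitted direction was found in both libraries for 5323 of the called genes. Of the 8 mTEC II markers other than Aire, 7 were higher and 0 lower, and of the 8 tested mTEC I markers 0 were higher and 8 lower. With no term for the library 4 of the mTEC II markers were higher and 8 of the mTEC I markers lower, beside 7.48% and 8.5% of all genes. The calls for Tnfrsf11a (adjusted p = 0.0649), Cd86 (adjusted p = 0.144) and Ciita (adjusted p = 0.547) were lost there. Among the 142 tested genes of the 7 antigen lists, which hold genes known mainly from other organs, 51 were higher and 4 lower. Under the blood cell filter 5114 genes were called, under the strict filter 3166, and with no term for the library 2563. The test called more than its nominal share of false positives in simulated data, as given with the methods.

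Fezf2 (14:12342094-12348189) was at 778 and 608 CPM in the members of replicates 1 and 2 and at 252 and 296 in Aire-zero mTEC, a log2 fold change of 1.36 ± 0.17 (SE; edgeR adjusted p = 0.00515). Cd40 (2:165055627-165072948), the receptor for T cell help, was at 323 and 210.4 CPM against 60.2 and 63.2 (2.10 ± 0.19, adjusted p = 0.00406). Tnfrsf11a (1:105780718-105847981), the receptor RANK, was at 96.5 and 86.7 CPM against 62.5 and 68.1 (0.51 ± 0.13, adjusted p = 0.0258). Of the 3 genes the difference was smallest for Tnfrsf11a. Cd80, which engages CD28 on T cells, was at 51.1 and 57.4 CPM in members against 9.35 and 22.7 (1.82 ± 0.29, adjusted p = 0.00790). Its partner Cd86 was at 17.2 and 20.2 CPM against 0.519 and 7.02 (2.52 ± 0.69, adjusted p = 0.0345). Ciita, the master activator of MHC class II genes, was at 37.4 and 138 CPM against 11.8 and 74.7 (1.25 ± 0.18, adjusted p = 0.00632), so that its level differed more between the libraries than between the classes. Cd52, a surface glycoprotein of lymphocytes and mature mTEC, was at 1162 and 1429 CPM against 116 and 966 and did not pass the test (1.81 ± 0.61, adjusted p = 0.0637), but passed with DESeq2 (adjusted p = 0.00614), with no filter on low counts (adjusted p = 0.0407) and with cells matched on UMIs (adjusted p = 0.0416).

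**Figure D1:**
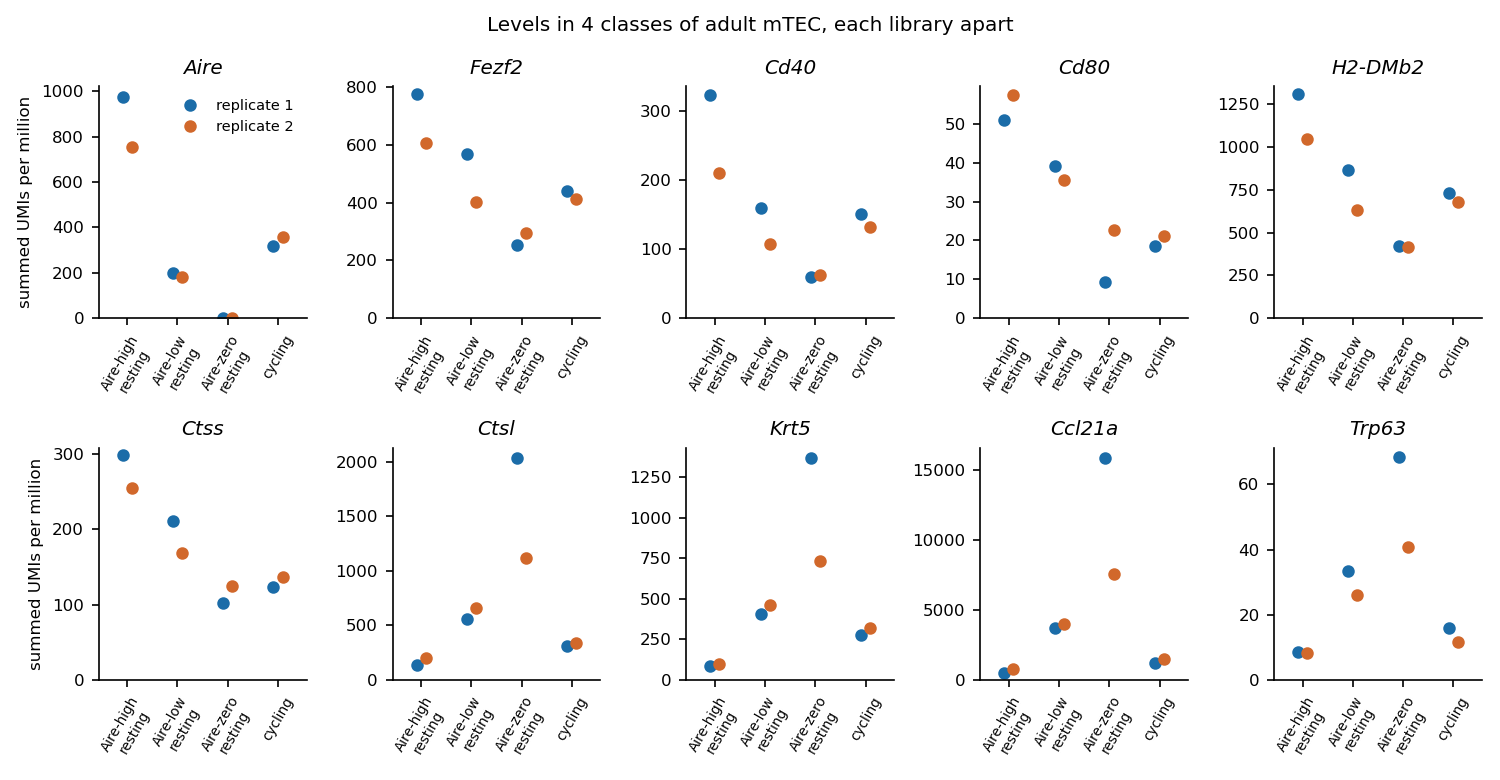
Level of 10 genes (CPM, linear axes from 0) in the 4 classes of adult mTEC, with a point for each library. Fezf2, Cd40, Cd80, H2-DMb2 and Ctss were highest in the Aire-high class of both libraries, and Ctsl, Krt5, Ccl21a and Trp63 were lowest there. Aire is shown as the gene that chose the classes.

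The RANK, CD40 and NF-kB list holds the receptors and the signaling chain that mature mTEC depend on. Of its 24 genes 12 were higher in members than in Aire-zero mTEC and 5 were lower. Tnfrsf11b, the decoy receptor osteoprotegerin that captures RANK ligand, was at 216 and 102 CPM against 46.0 and 51.8 (1.57 ± 0.31, adjusted p = 0.0137). Ltbr, the lymphotoxin receptor, was at 10.7 and 9.27 CPM against 33.2 and 23.9 (−1.47 ± 0.19, adjusted p = 0.00524). The members therefore held more transcript of RANK and its decoy and less of the lymphotoxin receptor. With no term for the library the calls for Tnfrsf11a (0.52, adjusted p = 0.0649) and Tnfrsf11b (1.72, adjusted p = 0.0692) were lost. In the noncanonical branch, Birc2 was at 204 and 114 CPM against 46.0 and 57.8 (1.54 ± 0.27, adjusted p = 0.00922). Relb was at 319.9 and 292 CPM against 157 and 172 (0.92 ± 0.11, adjusted p = 0.00461), and its partner Nfkb2 had a log2 fold change of 0.80 ± 0.11. In the canonical branch Rela was lower, at 34.0 and 30.2 CPM against 68.4 and 53.0 (−0.88 ± 0.13, adjusted p = 0.00697), and Nfkb1 did not pass (0.03 ± 0.12, adjusted p = 0.868). The inhibitors Nfkbia and Nfkbie were higher, with log2 fold changes of 0.79 ± 0.12 and 1.46 ± 0.16, while Tnfaip3, which encodes the brake A20, was lower at 15.8 and 8.53 CPM against 54.7 and 34.5 (−1.88 ± 0.18, adjusted p = 0.00406).

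Of the 11 tested genes for costimulatory and coinhibitory molecules 5 were higher and 1 was lower. Icosl, the ligand of ICOS on regulatory and helper T cells, was at 109 and 56.8 CPM in members against 15.1 and 17.7 in Aire-zero mTEC (2.25 ± 0.27, adjusted p = 0.00461). The inhibitory ligand gene Cd274 (PD-L1) went the other way, at 23.2 and 17.6 CPM against 67.2 and 28.0 (−1.09 ± 0.25, adjusted p = 0.0212), a call lost with cells matched on UMIs (adjusted p = 0.0772). Cd80, Cd86, Icam1 and Cd200 completed the genes that were higher. Under the strict filter the calls for Cd86 (2.29, adjusted p = 0.0711), Cd200 (0.30, adjusted p = 0.525) and Cd274 (−0.68, adjusted p = 0.0506) were lost.

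Genes of MHC class II presentation were higher as a group, with 12 of 18 higher, 2 lower and a median log2 fold change of 0.60. The sum of the list was 55207 and 47575 CPM in members and 31987 and 28683 in Aire-zero mTEC. Of the chains themselves, H2-Aa was at 9375 and 8826 CPM against 4605 and 4848 (0.97 ± 0.11, adjusted p = 0.00450), and the invariant chain gene Cd74 had the same log2 fold change of 0.97 ± 0.11. H2-DMb2, a chain of the peptide loader H2-DM, was at 1311 and 1047 CPM against 421 and 417 (1.51 ± 0.13, adjusted p = 0.00406). The genes of its modulator H2-O were also higher, with 1.43 ± 0.23 for H2-Oa and 1.68 ± 0.28 for H2-Ob.

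The cathepsins that cut the invariant chain moved in opposite directions. Ctss, the enzyme used by dendritic and other bone marrow derived cells, was at 299 and 255 CPM in members against 102 and 125 in Aire-zero mTEC (1.32 ± 0.17, adjusted p = 0.00530). Ctsl, the enzyme used by cTEC, was at 136 and 202 CPM against 2034 and 1119 (−3.21 ± 0.37, adjusted p = 0.00457). In adult cTEC Ctss was at 68.8 and 13.6 CPM and Ctsl at 7417 and 9714. The members thus had more Ctss than Ctsl in each library, and Aire-zero mTEC and cTEC had the reverse.

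MHC class I presentation had no common direction, with 6 of 17 genes higher and 4 lower and a median of −0.18. The immunoproteasome subunit Psmb10 was at 772 and 805 CPM in members against 323 and 412 (1.14 ± 0.10, adjusted p = 0.00406), and the activator Psme2 was at 918 and 952 against 358 and 506 (1.16 ± 0.12, adjusted p = 0.00422). The peptide transporter genes were lower, with Tap1 at −0.92 ± 0.22 and Tap2 at −1.31 ± 0.18, and so was the heavy chain H2-K1, at 2278 and 2411 CPM against 3578 and 3204 (−0.51 ± 0.11, adjusted p = 0.0194).

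Aire acts through chromatin and elongation proteins, and of 23 genes of such partners 1 was higher in members and 11 were lower. Sirt1, the deacetylase that acts on Aire, was at 164 and 134 CPM in members against 36.2 and 55.8 (1.72 ± 0.24, adjusted p = 0.00572). Top1, a topoisomerase that Aire uses, was at 109 and 125 CPM against 243 and 224 (−0.97 ± 0.14, adjusted p = 0.00581). Daxx, a chromatin repressor, was at 18 and 16.6 CPM against 68.7 and 39.6 (−1.57 ± 0.23, adjusted p = 0.00624). With other size factors (relative log expression) or DESeq2 the list had 2 higher and 9 lower. Of all genes 19.1% and 14.7% were higher and lower with those size factors, and 19.4% and 13.9% with DESeq2.

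Among 36 transcription factors of TEC 8 were higher in members and 14 lower. Foxn1, the factor on which the thymic epithelial program depends, was at 59.1 and 63.4 CPM against 21.3 and 30.9 (1.27 ± 0.14, adjusted p = 0.00441). Irf4 had a log2 fold change of 1.56 ± 0.26 and Irf8 of 0.64 ± 0.11. The neuroendocrine factor Insm1 was at 122 and 129 CPM against 17.3 and 58.3 (1.87 ± 0.39, adjusted p = 0.0162). Of the factors that were lower, Trp63, the factor of basal epithelial cells, was at 8.62 and 8.21 CPM against 68.4 and 40.9 (−2.60 ± 0.21, adjusted p = 0.00406). Prdm1 (Blimp1), linked to later mTEC, was at 3.19 and 3.68 CPM against 10.9 and 9.5 (−1.53 ± 0.26, adjusted p = 0.00922), a call lost under the strict filter (adjusted p = 0.0767), and Klf4 was also lower, at −1.84 ± 0.15. Tbata, a gene of thymic stroma that stands on the cTEC list, was at 1324 and 1113 CPM in members against 225 and 371 (2.11 ± 0.33, adjusted p = 0.00748), while the cTEC proteasome gene Psmb11 was at 4.95 and 12 against 2.77 and 10.3 and did not pass (adjusted p = 0.356). Of the 10 cTEC markers tested 2 were higher, Tbata and Ccl25, and 2 were lower, beside 16.3% and 16.9% of all genes tested. The 2 lower were Cxcl12 and the chemokine scavenger gene Ackr4, the latter at 0.16 and 0.704 CPM against 5.88 and 3.27 (−3.28 ± 0.91, adjusted p = 0.0355).

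Of 16 chemokine genes 4 were higher and 5 lower, and they serve different target cells. Ccl25, which attracts thymocyte progenitors through CCR9, was at 441 and 479.9 CPM in members against 67.5 and 165 (2.19 ± 0.44, adjusted p = 0.0140), below the 2447 and 3868 CPM of adult cTEC. Xcl1, which attracts cross-presenting dendritic cells, was at 35 and 54.5 CPM against 0.346 and 6.43 (4.01 ± 0.78, adjusted p = 0.0128). Few members carried it, with a UMI of Xcl1 in 8 of 471 and 109 of 1710 members and 84 of the 219 UMIs of replicate 1 in 1 cell, and the Aire-zero mTEC of replicate 1 held 2. The CCR4 ligand gene Ccl17 was at 52.9 and 160.2 CPM against 1.21 and 28.9 (3.09 ± 0.73, adjusted p = 0.0227), while Ccl22 did not pass (2.28 ± 0.92, adjusted p = 0.101), but passed with DESeq2 (3.20, adjusted p = 0.0481) and under the strict filter (2.10, adjusted p = 0.0366). Ccl19 had a log2 fold change of 0.82 ± 0.18, which was 0.03 under the strict filter (adjusted p = 0.935). The CCR7 ligand gene Ccl21a, which has near-identical copies that could share its reads, was at 494 and 731 CPM in members against 15850 and 7525 (−4.24 ± 0.44, adjusted p = 0.00412). Cxcl10, Cxcl12 and Cxcl16 were lower as well, at −1.04 ± 0.28, −2.05 ± 0.31 and −1.04 ± 0.21. Under the blood cell filter 4 of the 16 genes were higher and 8 lower, beside 17.3% and 16% of all genes. With no term for the library 0 were higher and 3 lower, beside 7.48% and 8.5%.

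The 8 mTEC I markers tested had a median log2 fold change of −2.86. Krt5, a basal keratin, was at 81.9 and 95.1 CPM in members against 1371 and 734 in Aire-zero mTEC (−3.54 ± 0.34, adjusted p = 0.00406). Krt14 was at 359 and 357 CPM against 2272 and 1210.1 (−2.24 ± 0.30, adjusted p = 0.00565), and Apoe at 60.7 and 155 against 2245 and 948 (−4.07 ± 0.68, adjusted p = 0.00853). Members had the lowest level of Krt5 and Apoe of the 4 classes in each library. Of 10 mTEC III markers 4 were lower and 0 higher, among them the keratin gene Krt10 at 25.1 and 28.2 CPM against 70.5 and 161 (−2.02 ± 0.31, adjusted p = 0.00692). Of 11 tuft markers 10 were lower, among them Dclk1 at 10.1 and 13.9 CPM against 62.7 and 65.6 (−2.40 ± 0.23, adjusted p = 0.00406). Of 7 microfold-like markers 3 were lower and 0 higher. With cells matched on UMIs 4 of the tuft, 2 of the mTEC III and 0 of the microfold-like markers were lower, and with no term for the library 1, 1 and 0 were. Under the blood cell filter 2 of the mTEC III and 5 of the microfold-like markers were lower. Of all genes 14.1% were lower with cells matched on UMIs, 8.5% with no term for the library and 16% under the blood cell filter. Of 6 tested neuroendocrine markers 1 was higher and 1 lower, close to the 16.3% and 16.9% of all genes. Their median of 0.24 was −0.82 under the strict filter and 1.37 with cells matched on UMIs. Of 6 epithelial markers 3 were lower, among them Epcam at 670.1 and 528 CPM against 1373 and 863 (−0.85 ± 0.14, adjusted p = 0.00790), a call lost under the strict filter (adjusted p = 0.0867), and Krt8 did not pass (−0.02 ± 0.11, adjusted p = 0.879).

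**Figure D2:**
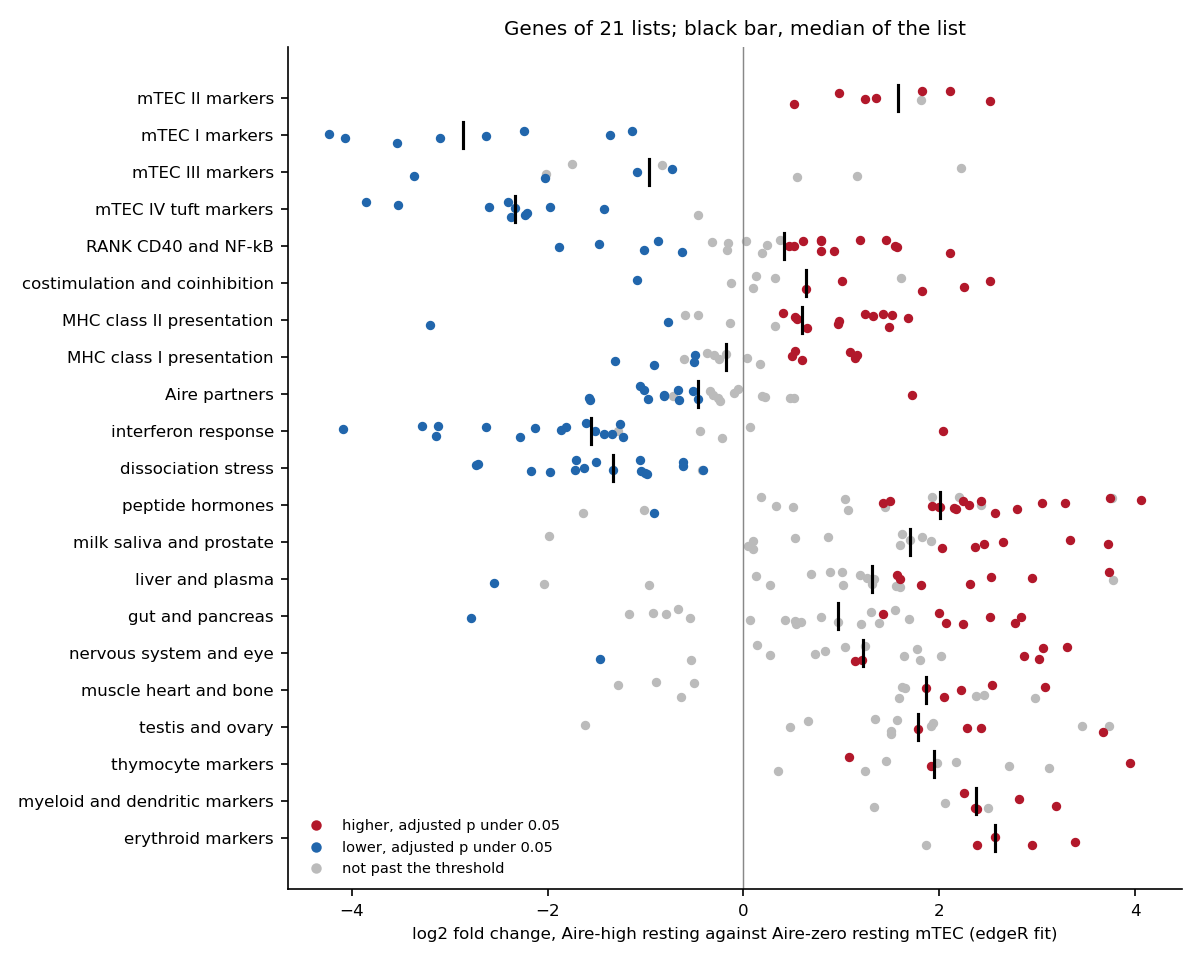
Log2 fold change of each tested gene of 21 lists, Aire-high resting against Aire-zero resting mTEC, with the median of each list as a black bar. Points are colored by whether the edgeR adjusted p was under 0.05 and by direction. All 8 mTEC I markers lay below 0 and the 7 antigen lists had medians from 0.97 to 2.0.

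Self-antigens are the main known product of these cells, and the lists follow the organ in which a gene is usually active. Of 29 peptide hormone genes 16 were higher in members than in Aire-zero mTEC and 1 was lower, with a median log2 fold change of 2.0 and a sum of 3465 and 3172 CPM against 707 and 1552. The sum in adult cTEC was 290.4 and 159.9 CPM. Calca (7:114631478-114636357), the gene of calcitonin and CGRP, was at 511 and 303 CPM in members against 14.9 and 49.0 (3.75 ± 0.73, adjusted p = 0.0127). Its paralog Calcb was at 1142 and 872 CPM against 137 and 206 (2.56 ± 0.26, adjusted p = 0.00406). Crhbp, which encodes the binding protein of the stress hormone CRH, was at 182 and 168 CPM against 13.2 and 24.4 (3.29 ± 0.27, adjusted p = 0.00406). Crhbp had no UMI in adult cTEC, where the limit of 3 counts is 1.34 and 0.743 CPM. The intestinal hormone gene Gip was at 64.8 and 112 CPM against 13.8 and 26.6 (2.17 ± 0.15, adjusted p = 0.00406), a difference that was 1.12 and not called under the strict filter (adjusted p = 0.0987). Ins2, the insulin gene of the beta cell, did not pass, at 28.8 and 69.8 CPM against 11.9 and 40.8 (1.07 ± 0.37, adjusted p = 0.0680), but passed under the blood cell filter (1.13, adjusted p = 0.0356) and with cells matched on UMIs (1.83, adjusted p = 0.0235). Resp18 was the hormone list gene that was lower, at −0.91 ± 0.19, and its direction turned with cells matched on UMIs (0.88). Of 23 hormone genes tested under the strict filter 7 were higher and 1 was lower, beside 14% and 14.5% of all genes. With no term for the library 5 of 29 were higher and 0 lower, beside 7.48% and 8.5%.

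Genes for secretory proteins of glands and of plasma formed separate lists. Of 17 tested genes of milk, saliva and prostate 6 were higher and 0 lower. Under the strict filter 1 of 8 was higher and 1 lower, beside 14% and 14.5% of all genes. With no term for the library 3 of 17 were higher and 0 lower, beside 7.48% and 8.5%. The list summed to 1906 and 1717 CPM in members, 299 and 759 in Aire-zero mTEC and 2947 and 1459 in adult cTEC. In replicate 1 the sum was thus higher in adult cTEC than in members. Csn2 (5:87692624-87699630), whose promoter is shown above, was at 1689 and 1326 CPM in members against 205 and 426 in Aire-zero mTEC (2.36 ± 0.38, adjusted p = 0.00770) and at 24.1 and 7.92 in adult cTEC. Of 23 liver and plasma genes 7 were higher and 1 was lower, with a median of 1.31, but under the strict filter 1 of 13 was higher and 4 were lower, with a median of −1.32, where 14% and 14.5% of all genes were. Apoa1, the main protein of high-density lipoprotein, was at 146 and 165 CPM against 35.5 and 79.8 (1.60 ± 0.39, adjusted p = 0.0244). The call for Apoa1 was lost under the blood cell filter (1.51, adjusted p = 0.0896), and its direction turned under the strict filter (−1.32). The acute phase gene Crp was lower, at 13.1 and 3.4 CPM against 136 and 10.3 (−2.55 ± 0.42, adjusted p = 0.00855), with most of its UMIs in replicate 1.

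Of 25 gut and pancreas genes 7 were higher and 1 was lower, with a median of 0.97 that was 0.13 under the strict filter. Cdx1, a transcription factor of the intestine, was at 594 and 419 CPM in members against 38.6 and 104 (2.84 ± 0.49, adjusted p = 0.00929). Reg3g, an antibacterial lectin of the gut, was at 644 and 948 CPM against 497 and 2712, higher in members of replicate 1 and lower in those of replicate 2 (−0.80 ± 0.62, adjusted p = 0.347), and it was called lower under the strict filter (−2.10, adjusted p = 0.00475). Of 18 genes of the nervous system and eye 6 were higher and 1 was lower, with Gad1, the enzyme that makes the transmitter GABA, at 34.0 and 21.9 CPM against 1.56 and 3.76 (3.30 ± 0.51, adjusted p = 0.00697). Of 15 genes of muscle, heart and bone 5 were higher and 0 lower, with the bone protein gene Bglap at 39.8 and 79.5 CPM against 1.90 and 13.7 (3.08 ± 0.77, adjusted p = 0.0263), a call lost under the strict filter (adjusted p = 0.129). Under that filter 0 of 9 muscle, heart and bone genes were higher and 1 was lower. The counts were 4 and 1 of 8 for nervous system and eye, 3 and 2 of 17 for gut and pancreas and 1 and 1 of 4 for testis and ovary. Of all genes 14% and 14.5% were higher and lower. Of 15 genes of testis and ovary 4 were higher and 0 lower, with Zp3 of the egg coat at 13.7 and 16.6 CPM against 2.25 and 3.56 (2.42 ± 0.53, adjusted p = 0.0180). This list summed to 80.0 and 154.7 CPM in members, 165 and 255 in Aire-low and 20.4 and 252 in Aire-zero mTEC. The gut and pancreas list summed to 2295 and 2686, 2646 and 3236, and 862 and 3942. Both sums were thus lower in members than in Aire-zero mTEC of replicate 2. The other antigen lists summed to higher levels in members than in Aire-zero mTEC of both libraries.

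Over the 7 lists together the median log2 fold change was 1.58 against 0.00 over all genes. With the blood cell filter 52 of 133 genes were higher and 4 lower, and with cells matched on UMIs 59 of 127 were higher and 4 lower. Under the strict filter 17 of 82 genes were higher and 11 lower, beside 14% and 14.5% of all genes in that fit, and the median was 0.76. With no term for the library 21 of 142 were higher and 1 lower. Of all genes 17.3%, 16.6% and 7.48% were higher with the blood cell filter, with matched cells and with no term for the library, and 16%, 14.1% and 8.5% were lower.

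The antigen genes were spread unevenly over the members. The median gene of the 7 lists had a UMI in 2.55% of members in replicate 1 and 5.85% in replicate 2, and 101 and 67 of 155 genes were found in fewer than 5% of members. The 24 genes of the RANK, CD40 and NF-kB list had a median share of 55.1% and 58.0%, and the 18 MHC class II genes of 89.6% and 89.3%. Few members carried most of the transcript, and among antigen genes with at least 100 UMIs in the members (64 and 119 genes) the 5% of members with the most UMIs of a gene held a median of 94.3% and 88.9% of them. A gene found in few members must score high on this measure. Over the 17 and 40 antigen genes found in at least 20% of members the median was 48.1% and 65.6%, against 21.8% and 22.4% for 20 and 21 genes of the RANK, CD40 and NF-kB list and 16.3% and 15.501% for 15 and 15 MHC class II genes.

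Single antigens ranged from near universal to rare in their share of cells with a UMI. RNA carried over between droplets of a library was not measured, and its part in these shares was not tested. Ccl21a, a marker of mTEC I, had a UMI in 85.8% and 99.9% of members, and adult cTEC come from other libraries. Csn2 had a UMI in 90.7% and 97.0% of members, 22% and 65.6% of Aire-zero mTEC and 1.97% and 1.68% of adult cTEC. Calca had a UMI in 39.3% and 52.2% of members, and the top 5% of members held 59.1% and 61.1% of its UMIs, with up to 193 and 166 in a cell. Pyy, a gut hormone, had a UMI in 10.2% and 45.4% of members, with up to 338 and 279 in a cell. Vip, a neuropeptide, had a UMI in 7 of 471 and 87 of 1710 members (1.49% and 5.09%). In adult cTEC Pyy and Vip had no UMI in 507 and 535 cells, and Calca had one in 0.986% and 1.12%. Shares of rare genes were higher in replicate 2 for Pyy, Vip, Ins2 and Apoa1, and the level of a rare gene such as Ins2 (3.82% and 21.7% of members) rested on few cells in replicate 1.

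**Figure D3:**
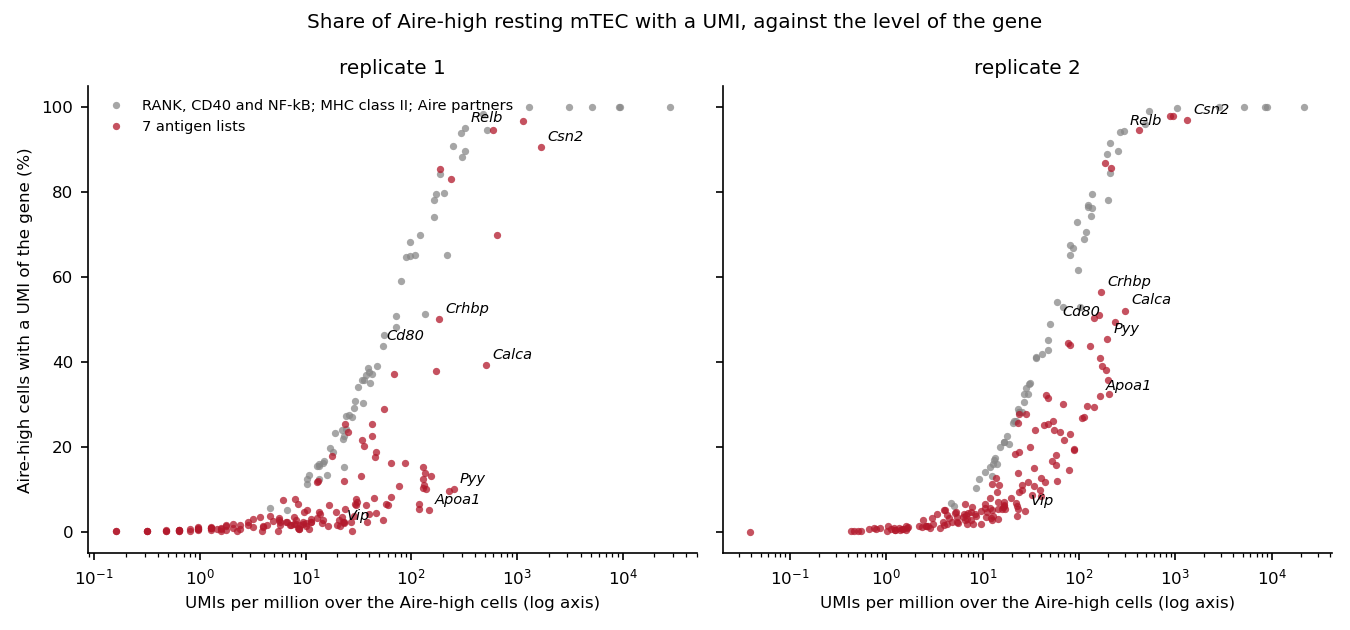
Share of Aire-high cells with a UMI of a gene (percent) against the level of the gene over all Aire-high cells (CPM, log axis), for each replicate. Red points are genes of the 7 antigen lists and grey points are genes of the RANK, CD40 and NF-kB, MHC class II and Aire partner lists. Many red points lie below the grey points at the same level, such as Pyy at 252 CPM and 10.2% of cells in replicate 1.

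Counted per cell at equal depth, UMIs of more antigen genes but of fewer genes in all were found in members. After each cell was thinned to 5000 UMIs, a member held on average 9.76 antigen genes in replicate 1 and 13.47 in replicate 2, an Aire-low cell 7.73 and 11.1, an Aire-zero cell 3.27 and 9.08 and a cycling cell 4.57 and 9.02. The difference between members and all other mTEC was 5.25 and 3.31 genes (mean 4.28, SD 1.37, n = 2). The median number of detected genes at this depth was 1870 and 1831 in members, 1944 and 1906 in other mTEC and 1953.5 and 1935 in Aire-zero mTEC, a difference from other mTEC of −74 and −75 genes (mean −74.5, SD 0.707). Without thinning the order was reversed, with 3294 and 3543 genes in members and 2636 and 2875 in other mTEC. Thinning left out 2 and 11 members and 131 and 557 other mTEC that were shallower. With 2 libraries no exact permutation test could reach p under 0.05, and none was made.

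**Figure D4:**
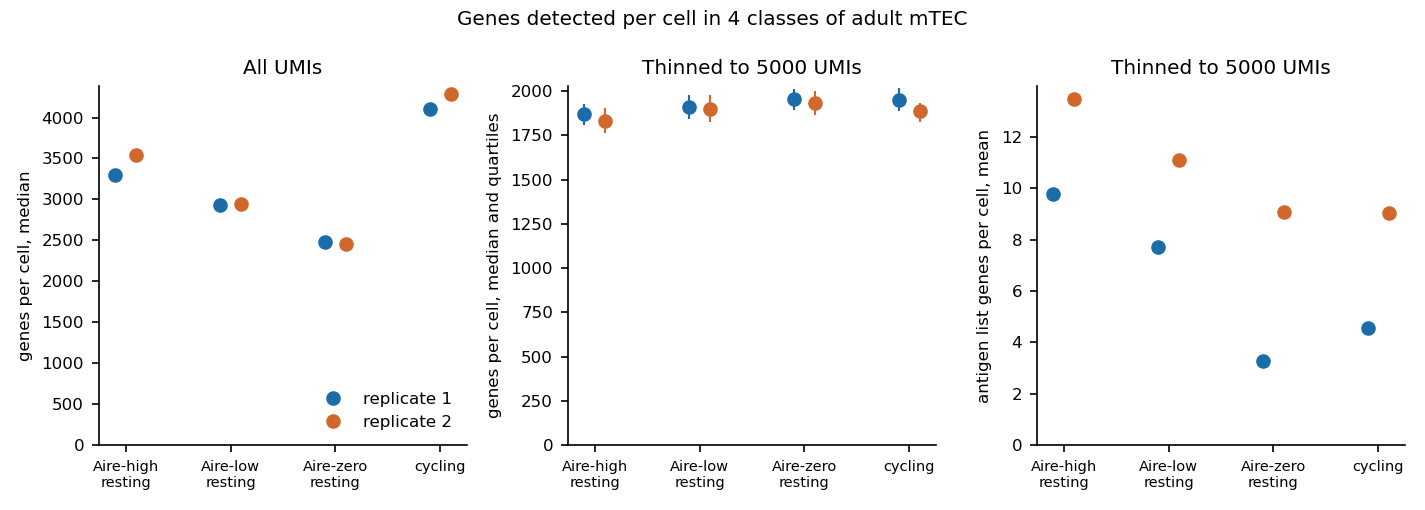
Genes detected per cell in the 4 classes with all UMIs (median), after thinning to 5000 UMIs (median, with bars for the quartiles over cells), and antigen list genes per cell after thinning (mean), with a point for each library and axes from 0. Aire-high cells held the fewest genes and the most antigen genes at equal depth in both libraries.

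Ribosomal protein transcripts (83 genes) took 18% and 23.1% of the UMIs of members, 16.3% and 21.3% of other mTEC, 14.7% and 19% of Aire-zero and 20.1% and 25.5% of cycling mTEC. Members were thus above other mTEC by 1.75 and 1.80 percentage points (mean 1.78), less than the gap between the libraries, and by 3.87 and 3.997 points under the strict filter.

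Genes of the interferon response and of the early response to tissue dissociation were lower in members as groups. Of 20 interferon genes 15 were lower and 1 was higher than in Aire-zero mTEC, with a median of −1.56. Isg15 was at 70.9 and 92.6 CPM against 1123 and 497 (−3.29 ± 0.46, adjusted p = 0.00581), and its regulator Irf7 was at 49.4 and 45.0 against 480.3 and 207 (−2.81 ± 0.40, adjusted p = 0.00616). Gbp4, a guanylate binding protein, was the gene that was higher, at 106 and 73.8 CPM against 19.2 and 24.2 (2.04 ± 0.20, adjusted p = 0.00406). Of 17 dissociation genes 16 were lower and 0 higher, with a median of −1.33 that was −0.73 with cells matched on UMIs (13 lower, beside 14.1% of all genes). Atf3, a stress-induced repressor, was at 154 and 134 CPM against 1351 and 659 (−2.71 ± 0.24, adjusted p = 0.00406). Nr4a1, which also responds to receptor signals, did not pass (−0.42 ± 0.25, adjusted p = 0.230). Dissociation genes are raised by cell handling, and the part of handling in these differences was not tested.

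Of 16 genes of survival and death 4 were higher and 2 lower, close to the 16.3% and 16.9% of all genes tested. The death receptor gene Fas was at 239 and 178 CPM in members against 85.0 and 73.1 (1.42 ± 0.11, adjusted p = 0.00406), and the effector Bax was at 432 and 338 against 183 and 198 (1.03 ± 0.12, adjusted p = 0.00461). The protective gene Bcl2l1 was also higher, at 64.7 and 77.0 CPM against 17 and 42.4 (1.36 ± 0.24, adjusted p = 0.00978), while Bcl2 was lower, at 18.1 and 16.2 against 41.0 and 34.8 (−1.12 ± 0.17, adjusted p = 0.00728). The G2M and S phase list, which the rule limits through Top2a and Mki67, summed to 986 and 827 CPM in members, 715 and 709 in Aire-zero mTEC and 6200 and 4450 in cycling mTEC, and no test of it is given.

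Some non-epithelial markers passed the test among the genes that were higher. Of the tested markers, 5 of 8 myeloid and dendritic, 4 of 5 erythroid, 3 of 10 thymocyte, 2 of 4 B cell, 2 of 6 mesenchymal and 0 of 4 endothelial genes were higher and 0 were lower. Lyz2, the lysozyme of myeloid cells, was at 738 and 639 CPM in members against 47.4 and 279.6 (2.36 ± 0.63, adjusted p = 0.0328) and had a UMI in 62.8% and 86.6% of members. Under the strict filter Lyz2 was not called (0.17, adjusted p = 0.734). That filter removes cells by their UMIs of Lyz2 and the other markers, so this outcome was largely built in and decides nothing about Lyz2. Thy1, a surface protein of T cells and neurons, was at 75.5 and 53.0 CPM against 1.21 and 6.53 (3.95 ± 0.54, adjusted p = 0.00568). Ptprc did not pass (0.35 ± 0.86, adjusted p = 0.773), and neither did Cd3e (1.24 ± 1.08, adjusted p = 0.398). The part of other cells in the differences of the other lists was not tested.

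The 10 genes with the largest positive and negative differences among called genes of average log2 CPM above 5 are named by rule, and of these Calca and Ccl21a also stand on the lists above. Those higher in members were Sprr2i, Gm13539, Fabp6, Calca, Nptx2, Cyp26a1, Pgc, Il9, Gm43569 and Madcam1, with log2 fold changes from 3.39 for Madcam1 to 4.23 for Sprr2i. Sprr2i (3:92407991-92409271), a small proline-rich protein of stratified epithelium with close relatives in its cluster, was at 196.8 and 78.3 CPM against 1.90 and 18 (4.23 ± 0.98, adjusted p = 0.0215). Fabp6, the bile acid binding protein of the ileum, was at 435 and 517 CPM against 5.02 and 118 (3.83 ± 1.07, adjusted p = 0.0371). Pgc, a digestive protease precursor of the stomach, was at 104 and 102 CPM against 3.46 and 18.4 (3.52 ± 0.55, adjusted p = 0.00710), and Il9, a cytokine of T cells, at 49.0 and 39.9 against 1.39 and 5.44 (3.52 ± 0.88, adjusted p = 0.0266). Under the strict filter the calls for Fabp6 (2.07, adjusted p = 0.151) and Pgc (1.15, adjusted p = 0.133) were lost, and with all deposited cells that for Il9 (3.29, adjusted p = 0.0544).

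Those lower in members were Gas1, Hpgd, Tagln, Fst, Mgp, Ifi202b, Ch25h, Ccl11, Sult5a1 and Ccl21a, from −4.96 for Gas1 to −4.24 for Ccl21a. Gas1 (13:60174405-60177365), a hedgehog co-receptor, was at 4.15 and 4.58 CPM against 219 and 87.5 (−4.96 ± 0.46, adjusted p = 0.00406). Fst, the activin antagonist follistatin, was at 6.07 and 4.38 CPM against 182 and 71.8 (−4.49 ± 0.42, adjusted p = 0.00406), and Mgp, a matrix protein, at 12.1 and 26.7 against 579 and 289.8 (−4.46 ± 0.55, adjusted p = 0.00494). Ch25h, which makes an oxysterol, was at 10.4 and 7.04 CPM against 286 and 106 (−4.36 ± 0.35, adjusted p = 0.00406).

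Within the members, the levels of some genes followed the Aire count and those of others did not. Resting cells with 0, from 1 to 4, from 5 to 9, from 10 to 19 and at least 20 Aire UMIs were summed apart, and the last 3 groups (190, 198 and 83 cells in replicate 1 and 837, 693 and 180 in replicate 2) are members. Cd40 went through 60.2, 159, 277, 337 and 378 CPM in replicate 1 and 63.2, 108, 179.5, 226 and 268 in replicate 2. Crhbp went through 13.2, 40.7, 123, 180.0 and 287 CPM and 24.4, 41.1, 124, 191 and 251. Both increased over every step, in each library. Fezf2 had reached 801 CPM at 5 to 9 Aire UMIs in replicate 1 and was at 757 and 781 above, and was at 583, 626 and 639 in replicate 2. Csn2 was at 1609, 1764 and 1679.98 CPM over the 3 groups of members in replicate 1 and 1327, 1353 and 1233 in replicate 2, and Cd80 at 49.6, 52.5 and 51.1 and at 54.4, 59.5 and 60.5. These genes differed little between the groups of members, in contrast to Cd40 and Crhbp, and the differences were not tested. The median depth rose with the groups as well, from 11484.5 to 15523 UMIs per cell in replicate 1 and from 13348 to 17336.5 in replicate 2.

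**Figure D5:**
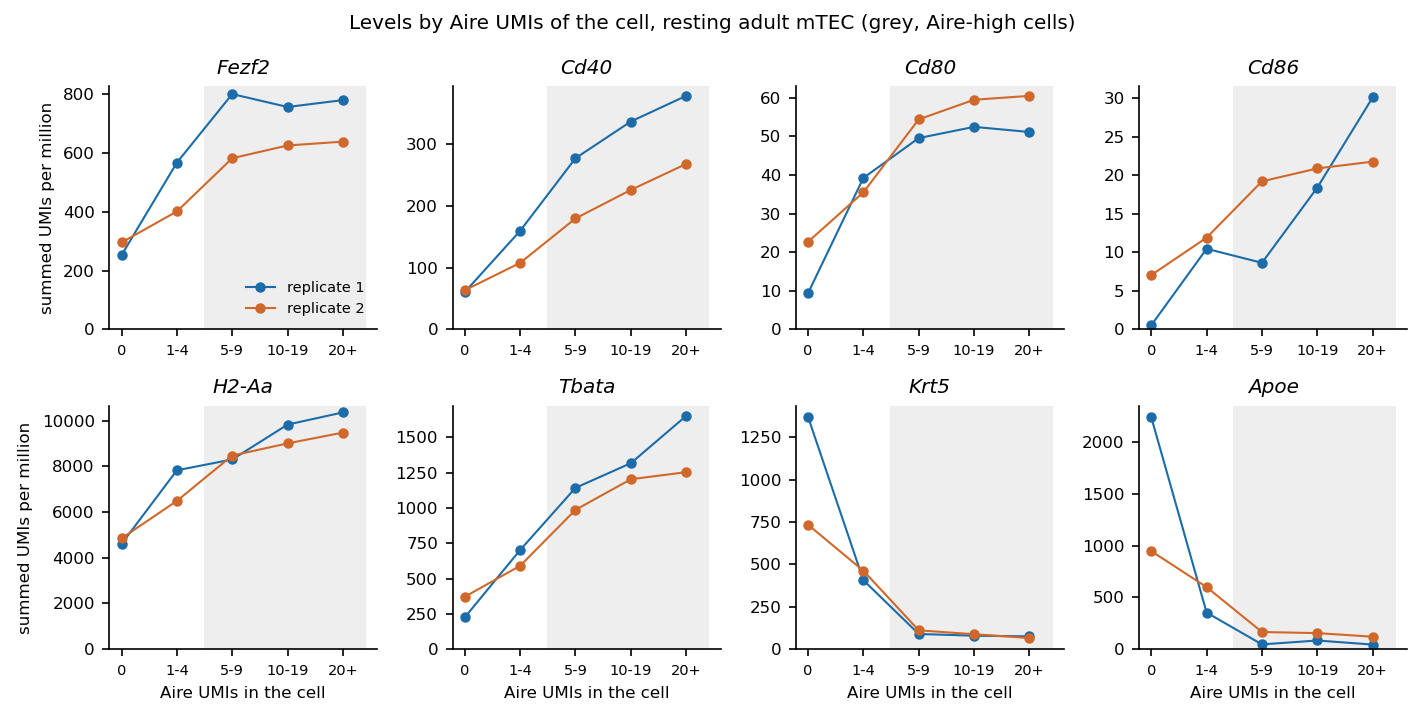
Level of 8 genes (CPM) in resting adult mTEC by the number of Aire UMIs in the cell, with a line for each library and the Aire-high range shaded grey. Cd40 and Tbata increased over every group in both libraries, and Krt5 and Apoe were at their highest at 0 Aire UMIs.

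Against cycling mTEC, members differed in 2960 of 16040 genes, 1212 higher and 1748 lower, which is 7.56% and 10.9% of the genes tested. DESeq2 called 1977 higher and 1651 lower, so that the higher share of calls was 40.9% in edgeR and 54.5% in DESeq2. The contrast uses the same member sums as that with Aire-zero mTEC. Of the 8 mTEC II markers 5 were higher and 0 lower. Cd80 was at 51.1 and 57.4 CPM in members against 18.7 and 21.2 in cycling mTEC (1.37 ± 0.30, adjusted p = 0.0308), and Cd86 at 17.2 and 20.2 against 0.549 and 3.86 (2.86 ± 0.77, adjusted p = 0.0486). Cd40 was at 323 and 210.4 CPM against 151 and 132 (0.80 ± 0.18, adjusted p = 0.0323). Fezf2, at 439 and 414 CPM in cycling mTEC, did not pass (0.61 ± 0.17, adjusted p = 0.0533), but passed with DESeq2 (adjusted p = 0.0166) and under the strict filter (adjusted p = 0.0325). Tnfrsf11a did not pass (0.21 ± 0.13, adjusted p = 0.276). Both costimulatory ligand genes were at their highest in members, in each library. Under the blood cell filter the calls for Cd86 (2.55, adjusted p = 0.0924) and Cd40 (0.81, adjusted p = 0.0548) were lost and 2 of the 8 mTEC II markers were higher. Under the strict filter the call for Cd80 (1.33, adjusted p = 0.110) was lost too and 1 of the 8 was higher, and with no term for the library 0 were. Of all genes 3.51%, 1.23% and 0.773% were higher in these fits.

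Of 142 antigen genes 94 did not pass the test, but 137 were fitted lower in cycling cells. Of these cells 56 of 100 and 278 of 527 held at least 5 Aire UMIs, but their Aire level was 317 and 357 CPM against 974 and 754 in members and they were deeper, with medians of 17987 and 20021 UMIs against 12807 and 14918. Of the 142 antigen list genes 48 were higher in members and 0 lower, with a median log2 fold change of 2.07 against 0.07 over all genes, and of the 29 hormone genes 16 were higher and 0 lower. Csn2 was at 232 and 395 CPM in cycling mTEC (2.22 ± 0.38, adjusted p = 0.0151) and Calca at 23.6 and 59.4 (3.15 ± 0.72, adjusted p = 0.0328). The call for Calca was lost under the strict filter (1.94, adjusted p = 0.0687). Of 18 MHC class II genes 10 were higher and 1 lower. These counts depended on the fit, and of the antigen genes 24 of 133 were higher under the blood cell filter, 5 of 82 under the strict filter and 2 of 142 with no term for the library, and 0 were lower. The shares of all genes called higher in these fits were 3.51%, 1.23% and 0.773%. Of the MHC class II genes 0 were higher under the strict filter and 1 with no term for the library. The 10 genes with the largest positive difference were Il9, Ccl25, Psors1c2, Spp1, Prss29, BC037156, Calca, Sbpl, Dppa3 and Tfap2b, with Ccl25 at 441 and 479.9 CPM against 12.6 and 61.0 (3.67 ± 0.48, adjusted p = 0.00711) and Dppa3, a gene of germ cells, at 126 and 133 against 3.29 and 22.2 (3.13 ± 0.68, adjusted p = 0.0292). Under the blood cell filter the calls for Il9 (3.86, adjusted p = 0.0546), BC037156 (2.55, adjusted p = 0.0636) and Dppa3 (2.59, adjusted p = 0.0535) were lost, and under the strict filter those for Dppa3 (1.02, adjusted p = 0.330), Sbpl (1.35, adjusted p = 0.519) and Prss29 (1.95, adjusted p = 0.423). With all deposited cells those for Il9 (1.87, adjusted p = 0.218) and Spp1 (1.41, adjusted p = 0.131) were lost, and with no term for the library those for all 10. The 10 with the largest negative difference (Hist1h2ap, Pclaf, Pbk, Cdca3, Spc24, Lig1, Cdca8, Rfc5, H2afx and Spc25) serve DNA replication and mitosis and follow from the rule.

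Against Aire-low mTEC edgeR called 0 of 16040 genes, with a smallest adjusted p of 0.0775 and 3209 genes at an unadjusted p under 0.05. DESeq2 called 454 higher and 400 lower on the same sums (2.83% and 2.49% of the genes). Aire-low levels of the mTEC II genes Cd40 and Fezf2 lay between those of members and Aire-zero mTEC, with Cd40 at 159 and 108 CPM and Fezf2 at 568 and 401. All 8 tested mTEC II markers had a fitted difference above 0, with a median of 0.59, and all 8 mTEC I markers below 0, with a median of −1.37. The 142 antigen genes had a median of 0.34, against −0.01 over all genes. The thymocyte markers summed to 45.7 and 38.7 CPM in Aire-low mTEC, also below the members.

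Against all other mTEC together edgeR called 0 of 17273 genes, in a fit of 4 sums with 1 residual degree of freedom, with a smallest adjusted p of 0.0506 and 6119 genes at an unadjusted p under 0.05. DESeq2 called 1371 higher and 1063 lower (7.94% and 6.15%). The adjusted p was 0.0506 for Fezf2 (0.90 ± 0.11), Cd40 (1.36 ± 0.17), Cd80 (1.22 ± 0.16), Csn2 (1.54 ± 0.22) and Krt5 (−2.90 ± 0.32) alike. For these 5 genes it was under 0.05 with no filter on low counts (0.0260 to 0.0268), with all deposited cells (0.0479 to 0.0488), with a threshold of 10 Aire UMIs (0.0308 to 0.0338), under the strict filter (0.0136 to 0.0307) and under the blood cell filter (0.0432), and it was also under 0.05 in DESeq2. The 8 mTEC II markers were higher in members of both libraries, and the 8 mTEC I markers lower in both, without a call in edgeR. Of all 17273 genes 14200 had the same sign in both libraries.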

How the data were processed

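Each deposited matrix holds UMI counts per gene and cell, which the authors made with Cell Ranger 2.0.1 (STAR 2.5.1b, bcl2fastq 2.17, genome build mm10, per the submitters' processing notes), while the headers of the later data set name Cell Ranger 3.0.1. The 2 adult mTEC libraries held 16693205 and 67536650 UMIs after the limits on cells. Data set 1 listed 27998 genes and data set 2 listed 31053, and sums used the 27514 in both. No doublet caller was run.

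Counts were summed per class and library and tested with edgeR 4.0.16 (limma 3.58.1, R 4.3.3) with TMM scaling, filterByExpr, the quasi-likelihood test, a term for the library and Benjamini-Hochberg adjustment at 0.05. Aire-zero, Aire-low and cycling mTEC entered a fit with the members (3 residual degrees of freedom), and all other mTEC a separate one (1). DESeq2 1.42.0 was an alternative. On simulated data, with 100 genes changed by a log2 of 1 and 100 by 2, the fit against Aire-zero mTEC recovered 55 and 98, and 11.6% of its calls were false. The changed genes, 200 of 15580 in this fit, were drawn from those of average log2 CPM above 5. Recovery at lower levels, or with as many genes changed as were called here, was not simulated. The false share was 8.82% against cycling, 10.3% against Aire-low and 25.5% against other mTEC, above the nominal level. Levels, thinning to a fixed number of UMIs and shares were computed in Python 3.11.15 (numpy 2.4.6, scipy 1.17.1, pandas 2.3.3).

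Named genes were those of the 32 lists and, per comparison, the 10 with the largest change in each direction among called genes of average log2 CPM above 5 with the same sign in both libraries, leaving out Aire, Top2a, Mki67, the genes of the G2M and S phase list, ribosomal, mitochondrial, hemoglobin and antigen receptor genes. The members and lists were chosen with earlier results of these data known. Aire, Top2a, Mki67, the G2M and S phase list and depth follow from the rule, and no test of them is reported. The values of 1 list gene are not reported here. Of 1818 and 7023 deposited barcodes 1586 and 5615 passed the limits on cells, and in the later data set this is not the number that the study states.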

Additional observations from a re-analysis of the deposited data

How the results depend on the processing

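With 2 libraries the tests rest on few degrees of freedom, the classes differ in depth by construction, and a count of 0 calls does not show that levels were alike. Leaving out each library in turn gives values with no test. The filters on Ptprc, Cd3e and Rag1 and the matching of both classes on UMIs were chosen after seeing the data. The cause of each change below was not tested.

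Against all other mTEC, where edgeR called 0 genes, DESeq2 called 2434, edgeR with no filter on low counts 2118, with all deposited cells 848, without cells of high UMIs or at least 3 non-epithelial UMIs 1396, with at least 10 Aire UMIs 1525, and without cells of high UMIs or with Ptprc, Cd3e or Rag1 1265. It called 0 with relative log expression size factors, with no library block, with at least 3 Aire UMIs, with the share of Aire among UMIs and with other mTEC matched on UMIs. Against Aire-low mTEC the calls went from 0 to 854 with DESeq2, 271 with no filter and 198 without cells of high UMIs or at least 3 non-epithelial UMIs.

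Against Aire-zero mTEC the 5326 calls became 2563 with no library block and 3166 without cells of high UMIs or at least 3 non-epithelial UMIs, and lay between 4476 and 5634 under the others. Against cycling mTEC the 2960 calls became 645 with no library block, 451 without cells of high UMIs or at least 3 non-epithelial UMIs and 1680 without cells of high UMIs or with Ptprc, Cd3e or Rag1. Members and the other classes were counted in the same libraries, which is the pairing that the library block takes up.

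The share of members in replicates 1 and 2 was 35.4% and 40.2% with at least 3 Aire UMIs, 17.7% and 15.55% with at least 10, 33.2% and 35.4% with no limit on Top2a and Mki67, 16.9% and 11.4% after thinning to 5000 UMIs, and 25.7% in replicate 2 with all deposited cells. The difference in genes per cell from other mTEC was −48.5 at 3000 UMIs, −98.5 at 8000 and −93.75 against Aire-zero mTEC, and ranged from −75 to −74 over single libraries. The difference in antigen genes per cell ranged from 3.31 to 5.25 over single libraries. The difference in ribosomal protein share was 3.71 points against Aire-zero mTEC and 3.93 without doubtful cells, and ranged from 1.75 to 1.80 over single libraries.

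Of the genes named with a test, those whose direction turned against Aire-zero mTEC were Krt8 (0.054 with DESeq2 and with relative log expression size factors, 0.017 without cells of at least 3 non-epithelial UMIs, 0.0046 without cells with Ptprc, Cd3e or Rag1, and from −0.11 to 0.0047 over single libraries), Nfkb1 (−0.0080 with no filter and from −0.011 to 0.011 over single libraries), Ptprc (−0.16 with all deposited cells), Apoa1 (−1.32 without cells of at least 3 non-epithelial UMIs), Resp18 (0.88 with cells matched on UMIs) and Reg3g (from −1.52 to 0.37 over single libraries). Over the alternatives with a test 985 of their values kept direction and side of the threshold, 73 lost the call and 46 gained it. With no library block 29 named genes lost the call against Aire-zero mTEC and 14 against cycling mTEC.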
